A study of Mus musculus with 18 samples.

Results

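The 10 genes described here are Prep, which encodes prolyl endopeptidase, and 9 genes called related here. These are Prepl, Dpp3, Dpp4, Dpp7, Dpp8, Dpp9, Prcp, Pepd and Xpnpep1. Dpp3 is included as a gene for a dipeptidyl peptidase. The others encode peptidases that cut peptide bonds next to proline or belong to the same enzyme families. All 10 genes were chosen by name, and each was found as 1 row among the 16314 gene symbols of the count table. Bulk RNA-seq was performed on bone marrow-derived macrophages (BMDMs) from Prep-/- mice and from Prep+/- littermates on a C57BL6/J background. Bone marrow cells were grown for 7 days in 50 ng/ml M-CSF, the growth factor that drives macrophage differentiation, and were then left unstimulated (M0) or stimulated for 24 h with 50 ng/ml LPS (M1) or with IL-4 plus IL-13, each at 20 ng/ml (M2). Each of the 6 combinations of genotype and state had 3 replicates, so that 18 libraries were compared. The control mice carry 1 intact Prep allele, no wild-type mice were included, and the age of the mice of the BMDM cultures is not given in the sources used here. The study describes the replicates as biological without saying whether each came from a separate mouse, so that p-values measure the spread between these libraries. The comparisons below address whether transcripts of these related peptidases differ when Prep is lost.

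The side chain of proline loops back onto the peptide backbone, and most peptidases cannot cut the bonds beside it, so that cells use a small group of specialised enzymes for these bonds. PREP is a serine peptidase that cuts short peptides after internal prolines, and PREPL resembles it in sequence but is not known to share its preference for proline. DPP4, at the cell surface, DPP8 and DPP9, in the cytosol, and DPP7, in lysosomes, remove dipeptides from peptides that carry proline or alanine next to the first residue. PRCP is a lysosomal carboxypeptidase that removes the last residue when proline precedes it. DPP3, PEPD and XPNPEP1 are metallopeptidases: DPP3 releases dipeptides from short peptides, PEPD, also called prolidase, splits dipeptides that end in proline, and XPNPEP1 takes off a first residue that is followed by proline. In macrophages, DPP8 and DPP9 are known for holding the NLRP1 inflammasome in check.

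The serine peptidases of the group other than Prepl share a short stretch around the active-site serine. In it, glycine, any residue, serine, any residue and a pair of glycines follow each other. The coding sequence at this stretch is shown because it ties these members to Prep. In the GENCODE annotation of GRCm39, 6 of the 10 coding sequences held this pattern, each at the active-site serine, and those of Prepl, Dpp3, Pepd and Xpnpep1 did not. Each line gives 45 coding bases, 5′ to 3′ on the coding strand, with the serine codon in capitals.
Prep: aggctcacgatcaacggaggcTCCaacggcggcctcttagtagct
Dpp4: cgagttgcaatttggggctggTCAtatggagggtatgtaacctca
Dpp8: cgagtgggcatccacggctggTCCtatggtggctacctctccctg
Dpp9: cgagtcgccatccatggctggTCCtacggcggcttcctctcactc
Dpp7: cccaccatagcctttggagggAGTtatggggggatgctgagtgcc
Prcp: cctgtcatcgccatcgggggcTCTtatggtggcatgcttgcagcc
The serine is encoded by codon 554 of the 710 codons of Prep, in exon 13 of 15 at chr10:45029261-45029263, and by codon 177 of the 491 codons of Prcp, in exon 4 of 9 at chr7:92559466-92559468. It is codon 624 of 760 in Dpp4, 749 of 892 in Dpp8, 729 of 862 in Dpp9 and 172 of 506 in Dpp7, where an intron interrupts the codon after exon 4. Position by position, 37 of the 45 bases were identical between Dpp8 and Dpp9 and 29 of the 45 between Dpp7 and Prcp, while Prep shared from 17 bases, with Dpp7, to 26, with Dpp9.

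The libraries held between 19068237 and 22598279 counts, and 12021 genes passed the filter on low counts. Values per library are normalized read counts, that is, counts scaled to a common library size with TMM factors, which corrects for differences in RNA composition. A library stood apart from its group in Prep-/- M0 and another in Prep-/- M2, replicate 3 in both. The counts of the M0 library differed from those of replicates 1 and 2 by 107 and 114 in chi-square per degree of freedom, where replicates 1 and 2 differed by 33.7. For the M2 library the values were 106 and 107, where replicates 1 and 2 differed by 11.6. In the M0 library, Prep, Prepl, Dpp8, Dpp9 and Xpnpep1 were each lower than in any library of the 5 other groups. For Xpnpep1 this also held in replicates 1 and 2 of Prep-/- M0, at 1052 and 1148 normalized counts against at least 1357. For Prep and the related genes tested, genotype differences in M0 and M2 are therefore also given without these libraries. Those of all other genes are given with all libraries only. The summed level of 6 macrophage markers lay between 9934 and 47341 CPM (counts relative to the TMM-scaled library size) in all libraries, and differed between the genotypes in each state. It was 29845 to 47341 CPM in Prep-/- M0 against 18639 to 22084 CPM in Prep+/- M0, 28314 to 35016 against 43063 to 44545 CPM for M1, and 13792 to 19481 against 9934 to 12139 CPM for M2. By median over all libraries, most of this sum was Lyz2, at 19547 CPM against 1269 CPM for Csf1r, the next marker. The sum therefore mainly shows the level of Lyz2. Of the other cell types, T and NK cell markers summed to 8.07 to 29.9 CPM in Prep-/- M0 and to at most 0.962 CPM in Prep+/- M0, almost all of it Cd4, whereas Cd3d never exceeded 1 count. B cell markers summed to 8.66 to 11.5 CPM in Prep-/- M0 against 3.01 to 4.78 CPM in Prep+/- M0, nearly all of it Cd79b, with Ms4a1 at no more than 1 count. Granulocyte precursor markers summed to 35.9 to 83.8 CPM in Prep-/- M0 against 17.2 to 22.2 CPM in Prep+/- M0, and stromal and dendritic cell markers reached at most 21.2 and 2.64 CPM in any library. In M1 and M2, T and NK cell markers were at 2.27 to 3.27 and 1.55 to 2.46 CPM in Prep-/- against 0.674 to 1.35 and 0.170 to 0.503 CPM in Prep+/-. B cell markers were at 5.09 to 6.96 and 0.958 to 4.45 against 2.06 to 2.59 and 1.56 to 2.81 CPM. Granulocyte precursor markers were at 17.4 to 24.2 and 14.1 to 22.4 against 22.4 to 39.0 and 10.6 to 12.6 CPM, with the lower range in Prep-/- for M1. The part of these differences in the results was not tested, and in bulk RNA fewer cells of a type and less RNA per cell cannot be told apart.

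Prep transcripts were strongly depleted in every Prep-/- library. Prep lies at chr10:44943130-45043294 on the plus strand (GRCm39). The normalized counts of Prep in M0 were 638, 739 and 899.96 in Prep+/- against 42.2, 42.5 and 31.2 in Prep-/- BMDMs. In M1 they were 681, 551 and 663 against 35.2, 47.0 and 59.2, and in M2 they were 799, 810.4 and 851 against 68.1, 50.8 and 60.9. The genotypes did not overlap in any state, so that the targeted gene matched the genotype label in each library. The log2 fold changes of Prep were -4.29 ± 0.19 (SE), -3.74 ± 0.19 and -3.77 ± 0.19 in the states M0, M1 and M2, with edgeR adjusted p-values of 5.97e-10, 8.29e-09 and 2.48e-09. Of the mean Prep+/- level, 5.09%, 7.46% and 7.31% remained in M0, M1 and M2. Counts per gene do not show which exons the remaining reads came from, and neither the edit in the Prep allele nor the treatment of reads that map to several places is given in the sources used here. Without the libraries that stood apart, the log2 fold change of Prep was -4.17 in M0 and -3.77 in M2. The largest stretch that Prep transcripts share with another gene was 346 bases at 83.8% identity to Cabin1.

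**Figure D1:**
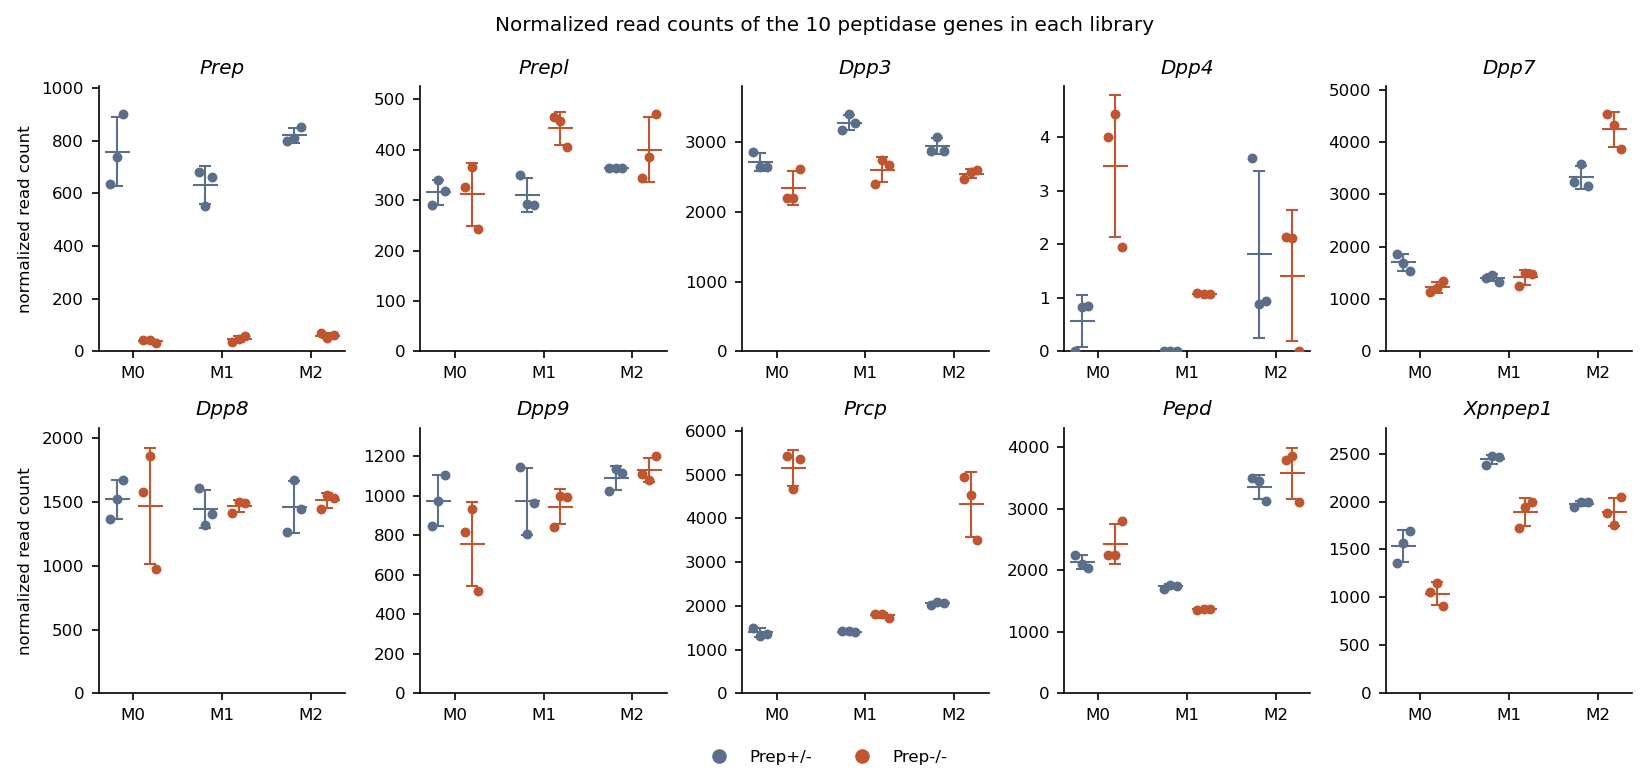
Normalized read counts (y axis, from 0, a scale for each gene) of the 10 peptidase genes in the M0, M1 and M2 states (x axis). Each point is 1 library, and the bars give the mean ± SD of 3 libraries; Prep is at most 68.1 normalized counts in all Prep-/- libraries, and Prcp is at 3507 or more only in the Prep-/- libraries of M0 and M2.

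Among the related genes tested, Prcp showed the largest difference between the genotypes in M0, in M2 and averaged over the states, but not in M1, where Prepl, Xpnpep1 and Pepd differed more. It was higher in Prep-/- BMDMs in all 3 states. PRCP acts in lysosomes and is known to inactivate angiotensin II and other peptides that carry proline before the last residue. The gene lies at chr7:92523678-92584954. In M0 its normalized counts were 1503, 1312 and 1369 in Prep+/- against 5419, 4685 and 5368 in Prep-/- BMDMs. All Prep-/- libraries exceeded all Prep+/- libraries by a wide margin, a 3.70-fold difference with a 95% confidence interval of 3.14 to 4.36 (log2 fold change 1.89 ± 0.11, edgeR adjusted p = 2.61e-08). In M2 the values were 2019.7, 2097 and 2072 against 4945, 4536 and 3507, a 2.10-fold difference (1.79 to 2.47; log2 fold change 1.07 ± 0.11, adjusted p = 1.06e-05). The lowest Prep-/- library in M2, replicate 3, was still well above the highest Prep+/- library. In M1 the genotypes came close, at 1421, 1423 and 1402 against 1817, 1824 and 1726. The M1 groups did not overlap either, and the difference was 1.26-fold (1.08 to 1.49; log2 fold change 0.34 ± 0.11, adjusted p = 0.0247).

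The genotype difference of Prcp itself depended on the state. Relative to M0, the log2 fold change of Prep-/- over Prep+/- was lower by 1.55 ± 0.16 in M1 (difference -1.55, adjusted p = 1.15e-05) and by 0.82 ± 0.15 in M2 (difference -0.82, adjusted p = 0.00485). The calls in M0 and M2 and both differences between states passed in every alternative fit, 13 of 13 for each call and 19 of 19 for each difference. The call in M1 was lost whenever 1 of the 6 M1 libraries was left out, with adjusted p between 0.0109 and 0.0954 over the alternatives. The common reference of both differences between states is the M0 comparison. Without Prep-/- M0 replicate 3, the log2 fold change of Prcp in M0 was 1.84 with an adjusted p of 7.56e-08, and without Prep-/- M2 replicate 3 that in M2 was 1.21 with an adjusted p of 3.77e-07.

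Dpp7, the other lysosomal member, moved in opposite directions in M0 and M2. DPP7 works at acidic pH and releases dipeptides from short peptides. The gene lies at chr2:25242288-25246391. In M0 its normalized counts were 1869, 1698 and 1529 in Prep+/- against 1131, 1217 and 1339.8 in Prep-/- BMDMs. All M0 libraries without Prep were lower, and Dpp7 fell by 0.47 ± 0.11 on the log2 scale (adjusted p = 0.00181). This passed in 12 of 13 alternative fits and was lost with a replicate block in only the M0 libraries (adjusted p = 0.0926). Without Prep-/- M0 replicate 3 the log2 fold change was -0.54 (adjusted p = 0.00128). In M2 the values were 3228, 3579 and 3163 against 4526, 4333 and 3875, and the groups were again separate but in the other direction (log2 fold change 0.35 ± 0.11, adjusted p = 0.0218), also without Prep-/- M2 replicate 3 (0.43, adjusted p = 0.00934). In M1 the ranges overlapped, from 1333 to 1468 against 1256 to 1503, with a difference of 0.777% and a 95% interval from -13.8% to 17.8%. The M2 effect was higher than the M0 effect by 0.82 ± 0.15 (adjusted p = 0.00403), and the M1 effect was higher than the M0 effect by 0.48 ± 0.15 (adjusted p = 0.0293). The difference between M2 and M0 passed in 19 of 19 alternative fits. The call in M2 passed in 9 of 13, and was lost without Prep+/- M2 replicate 1 or 3 or Prep-/- M2 replicate 1 or 2, with adjusted p up to 0.116. The difference between M1 and M0 passed in 8 of 19. Of the 12 fits that left out a library, it held in those without Prep+/- M0 replicate 3, Prep-/- M0 replicate 3 or Prep-/- M1 replicate 1 and was lost in the other 9.

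Of the serine peptidases Prepl, Dpp8 and Dpp9, Prepl was higher in Prep-/- BMDMs in M1, and no other difference in a single state passed. Prepl, at chr17:85369736-85397725, overlaps Camkmt and Slc3a1 on the opposite strand. Whether strand was used in counting is not given, so that its reads and theirs cannot be told apart. In M1 the normalized counts of Prepl were 349.7, 293 and 289.8 in Prep+/- against 465, 456 and 405 in Prep-/- BMDMs. These groups were separate, and Prepl was 1.42-fold higher in Prep-/- (1.14 to 1.77; log2 fold change 0.51 ± 0.15, adjusted p = 0.0148). That call was lost without Prep+/- M1 replicate 2 or 3 or Prep-/- M1 replicate 1, with adjusted p up to 0.0563. In M0 the values were 289, 339 and 318 against 325, 366 and 243, and in M2 they were 364.4, 363.9 and 363.4 against 344, 385 and 469.7. The groups overlapped in both, with differences of -1.29% in M0 (95% interval -20.5% to 22.6%) and 9.81% in M2 (-11.5% to 36.2%). Without the libraries that stood apart, the log2 fold changes of Prepl were 0.12 in M0, where it had been -0.02, and 0.01 in M2 (adjusted p = 0.463 and 0.957).

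Dpp8 and Dpp9, which restrain NLRP1, passed in none of the 3 states. The log2 fold changes of Dpp8, at chr9:64939647-64991784, were -0.05, 0.02 and 0.05 in M0, M1 and M2, with SEs of 0.17 and adjusted p-values of 0.833, 0.934 and 0.870. The interval of the difference was -24.8% to 24.2% for M0, -21.1% to 30.5% for M1 and -19.5% to 33.0% for M2. Without the libraries that stood apart, the values of Dpp8 were 0.17 in M0, a change of sign, and 0.05 in M2 (adjusted p = 0.266 and 0.858). Dpp8 transcripts share 1357 bases at 87.0% identity with Gm7470, so reads could be split between them. For Dpp9, at chr17:56493366-56525924, the normalized counts in M0 were 848, 974 and 1108 in Prep+/- against 819, 934 and 520.5 in Prep-/- BMDMs. The low value came from the library that stood apart, where Dpp8 was also low, at 974 against 1578 and 1858 in the other two Prep-/- libraries. The log2 fold change of Dpp9 was -0.37 ± 0.17 with all libraries (adjusted p = 0.0930) and -0.17 without that library (adjusted p = 0.337). In M1 and M2 Dpp9 differed by -2.85% (-24.7% to 25.4%) and 3.51% (-19.7% to 33.4%), and without Prep-/- M2 replicate 3 its log2 fold change in M2 was 0.02 (adjusted p = 0.959).

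Dpp4, at chr2:62159798-62242576, was close to undetected. It encodes the surface peptidase also known as CD26, which trims chemokines. Its raw counts in M0 were 0, 1 and 1 in Prep+/- against 4, 5 and 2 in Prep-/- libraries, 0 in all Prep+/- and 1 in all Prep-/- M1 libraries, and 4, 1 and 1 against 2, 2 and 0 in M2. The filter on low counts removed Dpp4, so that 8 of the 9 related genes were tested, and a level above 3 counts was seen in 3 of 18 libraries.

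The metallopeptidases Dpp3, Xpnpep1 and Pepd passed as lower in Prep-/- BMDMs in M1, and Xpnpep1 also in M0. Dpp3 encodes a cytosolic enzyme that cuts enkephalins and angiotensins and binds KEAP1, and lies at chr19:4957254-4978315. Its normalized counts in M1 were 3168, 3391 and 3264 in Prep+/- against 2401, 2739 and 2662 in Prep-/- BMDMs. All Prep-/- libraries were lower, and Dpp3 fell by 20.6% (log2 fold change -0.33 ± 0.09, adjusted p = 0.00910). In M0 the values were 2857, 2639 and 2638 against 2194, 2196 and 2612, and in M2 they were 2874, 3067 and 2861 against 2468, 2563 and 2593. The groups were separate in both, but the log2 fold changes of -0.22 ± 0.09 and -0.21 ± 0.09 had adjusted p-values of 0.0543 and 0.0995. Without Prep-/- M0 replicate 3, the M0 value was -0.32 with an adjusted p of 0.00569, and without Prep-/- M2 replicate 3 the M2 value was -0.21 with an adjusted p of 0.133. Averaged over the 3 states, Dpp3 fell by 0.25 ± 0.05 on the log2 scale (adjusted p = 0.000582), and this passed in 23 of 23 alternative fits. In M1 the call was lost without Prep-/- M1 replicate 1, at an adjusted p of 0.0549.

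Xpnpep1, at chr19:52916539-53028645, encodes the aminopeptidase that can inactivate bradykinin. In M0 its normalized counts were 1357, 1563 and 1690.5 in Prep+/- against 1052, 1148 and 910.1 in Prep-/- BMDMs. The groups were separate, and Xpnpep1 fell by 0.57 ± 0.10 on the log2 scale (adjusted p = 0.000339). Without Prep-/- M0 replicate 3 it fell by 0.49 (adjusted p = 0.00102). In M1 the values were 2384, 2469.9 and 2459.9 against 1723, 1942 and 1996, a fall of 0.37 ± 0.10 (adjusted p = 0.0118) that was lost without Prep-/- M1 replicate 1 (adjusted p = 0.0504). In M2 the ranges overlapped, from 1948 to 1998 against 1754 to 2047, with a difference of -4.29% (-17.8% to 11.4%) and, without Prep-/- M2 replicate 3, a log2 fold change of -0.11 (adjusted p = 0.474). The M2 effect was higher than the M0 effect by 0.50 ± 0.15 (adjusted p = 0.0404), a call that passed in 7 of 19 alternative fits, with adjusted p up to 0.123. Of the 12 fits without 1 library, it held without Prep+/- M0 replicate 1, Prep-/- M0 replicate 2 or Prep-/- M2 replicate 2. Transcripts of Xpnpep1 contain 2647 bases at 96.3% identity to Zfp69.

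Pepd, at chr7:34611803-34744134, encodes prolidase, which returns proline from collagen-derived dipeptides to the cell. In M1 its normalized counts were 1703, 1763 and 1748 in Prep+/- against 1355, 1375 and 1371 in Prep-/- BMDMs. The groups were separate, and Pepd fell by 21.4% (log2 fold change -0.35 ± 0.10, adjusted p = 0.0174). The call was lost without Prep+/- M1 replicate 2 or 3 or Prep-/- M1 replicate 1, with adjusted p up to 0.0663. In M0 the values were 2251, 2099 and 2034 against 2239, 2246 and 2806, and in M2 they were 3489, 3441 and 3119 against 3782, 3847 and 3100.1. The groups overlapped in both states, with differences of 14.2% (-1.95% to 33.0%) and 6.76% (-8.30% to 24.3%). Without the libraries that stood apart, the log2 fold change of Pepd was 0.06 in M0, where it had been 0.19, and 0.20 in M2, where it had been 0.09 (adjusted p = 0.614 and 0.166). The M1 effect was lower than the M0 effect by 0.54 ± 0.15 (difference -0.54, adjusted p = 0.0148), and this passed in 19 of 19 alternative fits.

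**Figure D2:**
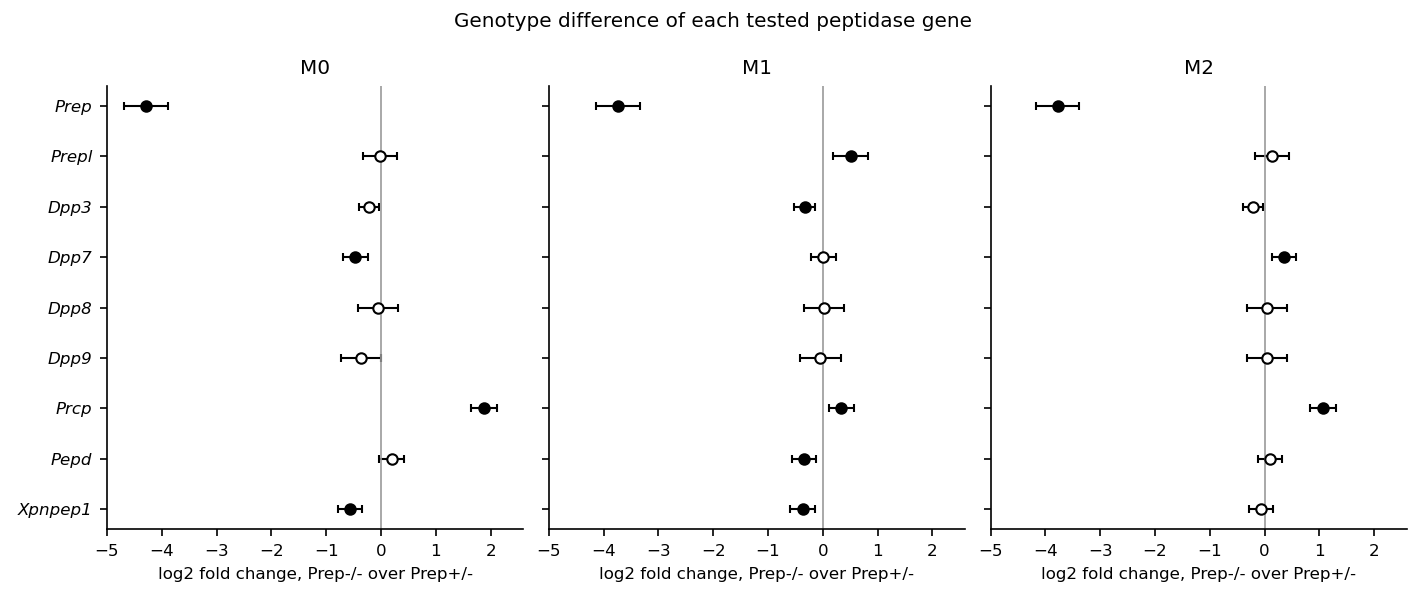
Log2 fold change of Prep-/- over Prep+/- (x axis) for Prep and the 8 related genes tested (y axis), in M0, M1 and M2. Points are edgeR estimates, bars their 95% confidence intervals without adjustment, and filled points passed an adjusted p of 0.05; Prcp is the only related gene to the right of 1, in M0 and M2, and Prep is between -4.29 and -3.74.

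Counted over the 9 related genes in M0, Prcp passed as higher and 2 genes, Dpp7 and Xpnpep1, passed as lower. M1 gave 2 higher (Prepl, Prcp) with 3 lower (Dpp3, Pepd, Xpnpep1), and M2 gave 2 higher (Dpp7, Prcp) with 0 lower. At an unadjusted p under 0.05, and by DESeq2, 3 genes were lower in M0, with Dpp3 as the further one. In M2, 1 gene, Dpp3, was lower at an unadjusted p under 0.05, and DESeq2 called 0 there. Among all 12021 genes tested, the share passing as higher was 24.3% in M0, with 24.2% passing as lower. The corresponding shares for M1 were 19.7% (higher) with 16.6% (lower), and for M2 11.6% (higher) with 13.1% (lower). Beside these shares, the calls in either direction among the 8 related genes tested were 3, 5 and 2 in M0, M1 and M2. Whether these numbers differ from the shares was not tested. With a fold change over 1.5 in addition, the criterion for differentially expressed genes (DEGs), Prcp was the only related gene in M0 and in M2 and no related gene was a DEG in M1, also at an unadjusted p and with DESeq2, against 32.6%, 22.5% and 16.2% of all genes. The groups did not overlap for 4, 5 and 3 of the 8 genes tested in M0, M1 and M2, where this held for 52.6%, 56.9% and 42.1% of all genes. The median log2 fold change of the 8 tested was -0.13, -0.02 and 0.07, beside 0.02, 0.04 and 0.03 over all genes. In M0, the absolute log2 fold change of Prep was larger than that of 99.7% of all genes, and that of Prcp was larger than that of 94.5%. The values for Prcp in M1 and M2 were 46.4% and 89.5%, and those for Prep 99.7% and 99.8%. Averaged over the states, Prepl and Prcp passed as higher and Dpp3 and Xpnpep1 as lower, against 29.2% higher and 26.2% lower among all genes. Prepl was at the threshold there (log2 fold change 0.21 ± 0.09, adjusted p = 0.0482), and passed in 8 of 23 alternative fits. Of the 18 fits without 1 library, it held without replicate 3 of Prep-/- M0, replicate 1 of Prep+/- M1, replicate 3 of Prep-/- M1, or replicate 1 or 2 of Prep-/- M2.

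Levels of different genes were compared per kilobase of annotated exon, as normalized counts per kb. In Prep+/- M0, Dpp7 was highest at 506 ± 50.7 (SD, n = 3), followed by Pepd at 383 ± 20.1, Dpp3 at 274 ± 12.8 and Prcp at 209 ± 14.7. Xpnpep1 at 91.7 ± 10.03, Dpp9 at 86.4 ± 11.5, Dpp8 at 70.1 ± 7.15 and Prep at 60.6 ± 10.6 followed, and the ranges of each of these overlapped that of the next. Prepl came after them at 39.3 ± 3.11, and Dpp4 was at 0.0639. Prep was thus 8th of the 10 genes in the unstimulated controls and made up 3.54% of their summed level per kb, 3.04% in M1 and 2.53% in M2. In Prep-/- M0 the order was led by Prcp at 774 ± 61.5, ahead of Pepd at 437 ± 58.6 and Dpp7 at 366 ± 31.2, whose ranges were also separate from each other. Dpp8, Dpp9 and Xpnpep1, between 61.8 and 67.7, could not be ordered, and Prep was 9th at 3.09 ± 0.512.

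In the stimulated states Dpp7 stayed on top by this length. With the longest transcript as length it ranked 3 in M1 and 2 in M2 in both genotypes and 3 in Prep+/- M0, with Pepd at rank 1 in each of these groups. In M1 it reached 418 ± 20.3 in Prep+/- and 422 ± 41.0 in Prep-/- BMDMs. Prcp was at 212 ± 1.74 and 269 ± 8.18, Dpp3 at 331 ± 11.3 and 263 ± 17.9, and Pepd at 313 ± 5.61 and 246 ± 1.85, so that Prcp was 4th in Prep+/- and could not be told from Dpp3 in Prep-/- BMDMs. In M2, Dpp7 reached 990 ± 66.7 and 1264 ± 99.6, Pepd 602 ± 36.2 and 643 ± 74.4, and Prcp 309.6 ± 5.89 and 649.7 ± 111. Prcp and Dpp3 could not be ordered in Prep+/- M2, nor Prcp and Pepd in Prep-/- M2.

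**Figure D3:**
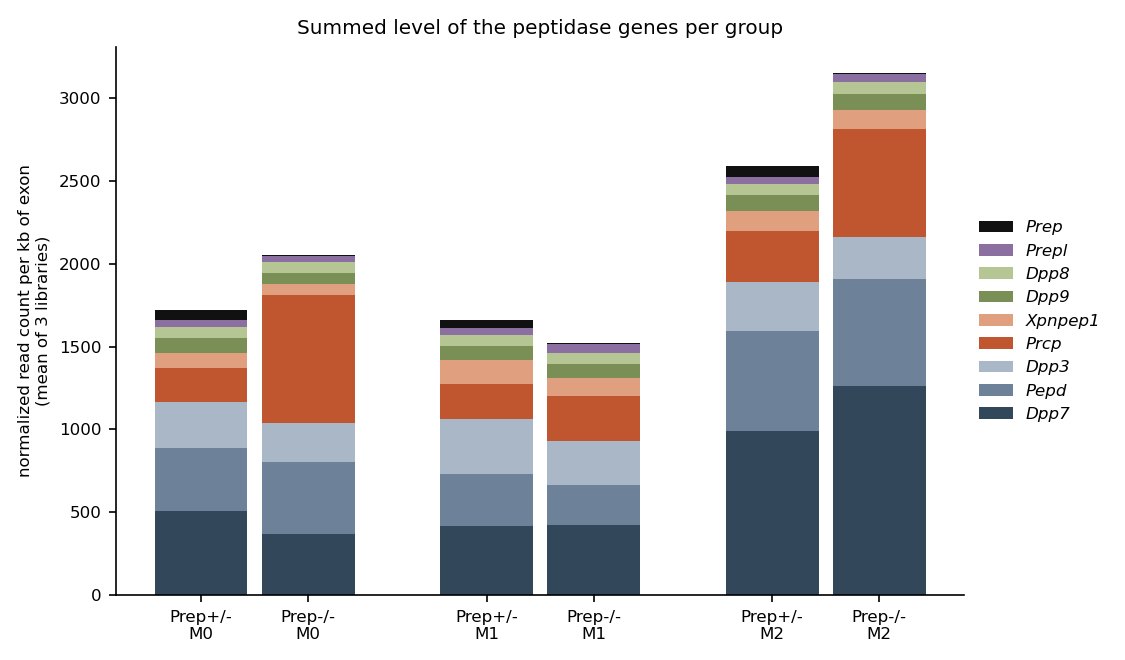
Stacked mean levels of Prep and the 8 related genes that passed the filter (y axis, normalized read count per kb of exon, mean of 3 libraries) in the 6 groups (x axis). The Prcp segment is 209 in Prep+/- M0 and 774 in Prep-/- M0, and the Prep segment is the thin black band on top, 60.6 in Prep+/- M0.

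Summed over the 9 related genes, normalized counts were 19.9% higher in Prep-/- than in Prep+/- BMDMs in M0, 8.35% lower in M1 (difference -8.35%) and 18.5% higher in M2. The sums were 12284 ± 119 against 14731 ± 66.6 in M0, 13001 ± 173 against 11916 ± 565 in M1 and 16569 ± 680 against 19631 ± 1154 in M2, and are given without a test. Per kb, Prep-/- BMDMs had 57.5, 46.7 and 60.7 less of Prep in M0, M1 and M2, and the related genes together had 389 more, 93.4 less (change -93.4) and 621 more. The size of the sum depended on the scaling: as CPM of the raw total, the differences were 8.21%, -4.65% and 6.82%. In M0, the rise of Prcp by itself exceeded the rise of the whole sum.

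Stimulation changed several of these genes in both genotypes, and the comparisons with M1 and M2 share the M0 libraries of each genotype. Prep passed in neither comparison with M0 in Prep+/- BMDMs. Its log2 fold changes were -0.27 ± 0.16 in M1 and 0.11 ± 0.16 in M2 (adjusted p = 0.169 and 0.672). The intervals of these differences were -33.9% to 4.74% and -14.0% to 35.8%. M1 and M2 were not tested against each other. Their Prep+/- ranges were separate, at 551 to 681 normalized counts of Prep in M1 and 799 to 851 in M2. In Prep+/- BMDMs, M1 raised Xpnpep1 by 0.67 ± 0.10 and Dpp3 by 0.27 ± 0.09 on the log2 scale, and lowered Pepd (-0.29 ± 0.10) and Dpp7 (-0.27 ± 0.11), with adjusted p-values of 4.77e-05, 0.0168, 0.0270 and 0.0388. These 2 higher and 2 lower of 9 stand beside 24.8% higher and 27.3% lower among all genes. The Dpp7 call was lost with relative log expression scaling and without the filter, and both it and the Pepd call were lost without replicate 1 or 2 of M0 or replicate 1 or 3 of M1. The Dpp3 call was lost without replicate 2 of M0 or replicate 2 or 3 of M1, with adjusted p up to 0.121. In Prep-/- BMDMs, M1 raised Xpnpep1 by 0.86 ± 0.10 (adjusted p = 3.23e-06) and Prepl by 0.50 ± 0.15 (adjusted p = 0.00800), and lowered Prcp (-1.53 ± 0.11, adjusted p = 1.25e-08) and Pepd (-0.83 ± 0.11, adjusted p = 5.05e-06), beside 29.3% higher and 27.8% lower among all genes. The Prepl call was lost without Prep-/- M0 replicate 3 (adjusted p up to 0.0602). Prcp fell by 65.3% from M0 to M1 in the absence of Prep, while in Prep+/- BMDMs its M1 and M0 levels differed by 1.47% (-13.6% to 19.2%).

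In M2, the lysosomal Dpp7 rose most. It rose by 0.97 ± 0.11 on the log2 scale in Prep+/- and by 1.79 ± 0.11 in Prep-/- BMDMs (adjusted p = 5.32e-06 and 2.48e-09). Pepd rose by 0.65 ± 0.10 and 0.56 ± 0.10 (adjusted p = 0.000252 and 0.000400), the second of which was lost with a replicate block in only the libraries compared (adjusted p = 0.0835), and Xpnpep1 by 0.36 ± 0.10 and 0.87 ± 0.10 (adjusted p = 0.0205 and 5.83e-06). Prcp rose by 0.56 ± 0.11 in Prep+/- BMDMs (adjusted p = 0.00147), whereas in Prep-/- BMDMs, where it was already high in M0, the value was -0.25 ± 0.11 (adjusted p = 0.0693). Dpp9 rose in Prep-/- BMDMs (0.58 ± 0.17, adjusted p = 0.0131), where its M0 values include the library that stood apart, and this was lost in 2 of 13 alternative fits, those of the compared libraries alone. In Prep+/- BMDMs the value was 0.16 ± 0.17 (adjusted p = 0.570). Among the 9 related genes, 4 passed as higher and 0 as lower in each genotype. Among all genes, 9.35% passed as higher with 9.06% as lower in Prep+/-, and for Prep-/- BMDMs these shares were 22.1% with 21.7%. At an unadjusted p under 0.05, 0 genes were lower in Prep+/- and 1, Prcp, in Prep-/- BMDMs, and DESeq2 called 0 in both. The Xpnpep1 call in Prep+/- passed in 8 of 13 alternative fits, and of the 6 fits without 1 library it held in the 1 without M0 replicate 3. The few reads of Prep left in Prep-/- BMDMs were also higher in M2 than in M0 (log2 fold change 0.63 ± 0.20, adjusted p = 0.0195), a call that passed in 8 of 13 alternative fits and was lost without Prep-/- M0 replicate 3 and without Prep-/- M2 replicate 1 or 3.

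**Figure D4:**
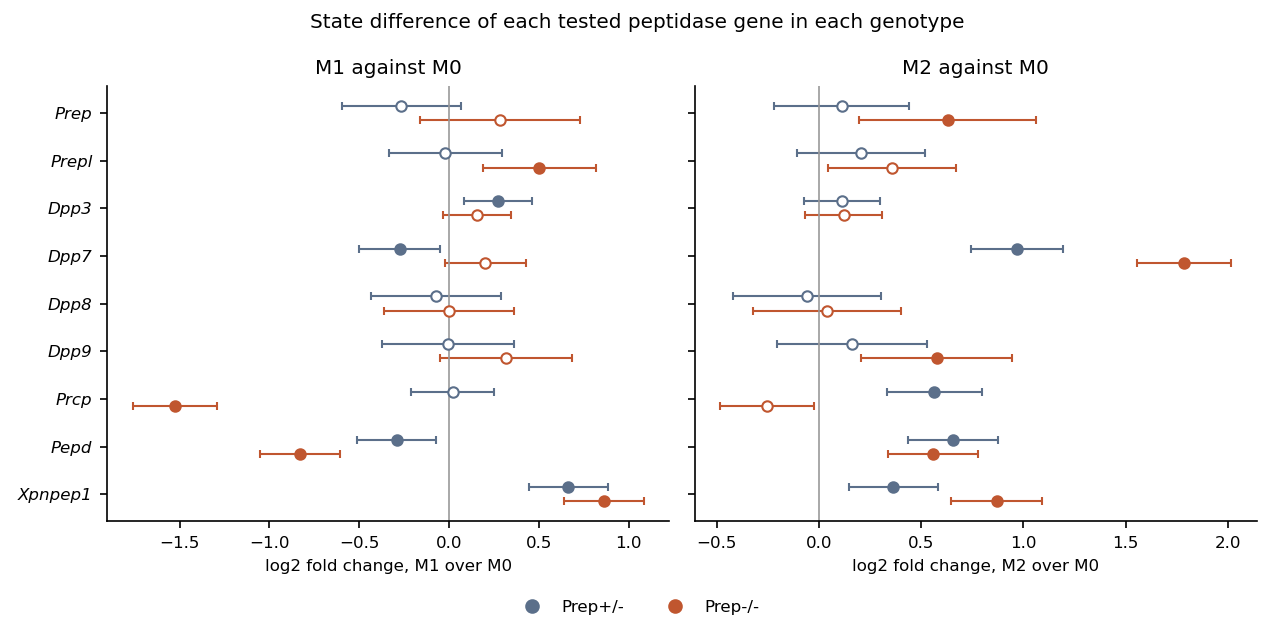
Log2 fold change of M1 over M0 (left) and of M2 over M0 (right) on the x axis, for Prep and the 8 related genes tested (y axis), in Prep+/- and Prep-/- BMDMs. Points are edgeR estimates, bars their 95% confidence intervals without adjustment, and filled points passed an adjusted p of 0.05; Prcp is near 0 in Prep+/- and at -1.53 in Prep-/- BMDMs on the left, and Dpp7 has the highest value on the right in both genotypes.

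The difference of the genotype effect between M1 and M0 passed for 1 related gene as higher (Dpp7) and 2 as lower (Prcp and Pepd), beside 13.7% and 10.9% of all genes. Between M2 and M0 it passed for 2 as higher (Dpp7 and Xpnpep1) and 1 as lower (Prcp), beside 5.16% and 4.48% of all genes. For Prepl, whose genotype difference passed in M1 and not in M0, the difference between the states was 0.53 ± 0.21 (adjusted p = 0.0771).

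Other genes of the same functions were read from lists chosen by name. Of 6 lysosomal exopeptidases, 3 were higher in Prep-/- BMDMs in M0, 2 in M1 and 5 in M2. Among all genes tested, 24.3%, 19.7% and 11.6% passed as higher in these states. The median log2 fold change of the 6 exopeptidases was 0.48, 0.15 and 0.66. Ctsh, which encodes the aminopeptidase cathepsin H, had 2019 to 2365 normalized counts in Prep+/- and 4339 to 7359 in Prep-/- M0 (log2 fold change 1.34 ± 0.20, adjusted p = 4.79e-05), and was also higher in M2 (1.46 ± 0.20, adjusted p = 8.01e-05), with 0.13 ± 0.19 in M1 (adjusted p = 0.635). Scpep1, a serine carboxypeptidase, was higher in all 3 states (0.64 ± 0.12, 0.84 ± 0.12 and 0.96 ± 0.12). Ctsc, the lysosomal dipeptidyl peptidase cathepsin C, was higher in M0 and M2 (0.65 ± 0.22 and 0.71 ± 0.22), with -0.08 ± 0.22 in M1 (adjusted p = 0.793). Its M2 groups overlapped, at 3809 to 4409 normalized counts in Prep+/- and 3765 to 8454 in Prep-/- BMDMs.

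Of the 14 other cytosolic peptidases, 8 were lower and 3 higher in M0 and 4 were lower and 2 higher in each of M1 and M2, with medians of -0.30, -0.09 and -0.07. Over all genes tested, 24.2% passed as lower and 24.3% as higher in M0. The shares were 16.6% and 19.7% in M1 and 13.1% and 11.6% in M2. Thop1, which like Prep encodes an enzyme that cuts short peptides, fell by 0.89 ± 0.16, 0.99 ± 0.17 and 0.65 ± 0.16 in M0, M1 and M2. Blmh, bleomycin hydrolase, fell by 0.38 ± 0.15, 0.96 ± 0.15 and 1.10 ± 0.15, with overlapping groups in M0. Ide, the insulin-degrading enzyme, fell by 1.39 ± 0.17 in M0 and 0.59 ± 0.17 in M2, with 0.10 ± 0.17 in M1 (adjusted p = 0.662). Of 7 further genes of the prolyl oligopeptidase and proline-specific families, 3 were tested. Of these, Apeh, the acylaminoacyl-peptidase, was higher in M0 (0.28 ± 0.10, adjusted p = 0.0350), and Prss16, which is related to Prcp and Dpp7, fell by 0.75 ± 0.25 in M1 (adjusted p = 0.0280). Fap, Xpnpep2, Dpp6 and Dpp10 reached at most 23 counts and were not tested.

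Of 7 cell surface peptidases, 3 were tested. Cpd, carboxypeptidase D, was lower in all states, with log2 fold changes of -1.43 ± 0.16, -0.99 ± 0.16 and -0.84 ± 0.16, and Anpep, aminopeptidase N, was lower in M0 (-0.36 ± 0.13) and higher in M2 (0.83 ± 0.13). Of 7 proline metabolism genes tested, 3 were lower and 1 was higher in M0, while the calls in M1 (2 genes) and M2 (4 genes) were all lower. Beside them, 24.2% of all genes passed as lower and 24.3% as higher in M0. In M1 and M2, 16.6% and 13.1% of all genes passed as lower. Aldh18a1 and Pycr1, which act in proline synthesis, fell by 2.05 ± 0.29 and 2.35 ± 0.46 in M0 and by 1.02 ± 0.27 and 2.02 ± 0.46 in M2, while in M1 the values were 0.57 ± 0.27 and 0.19 ± 0.47 (adjusted p = 0.106 and 0.770).

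Among 12 tested substrates and partners of these peptidases, 5 passed as higher with 2 as lower in M0. The numbers were 4 with 3 for M1 and 1 with 2 for M2, with medians of -0.03, 0.13 and -0.05. Among all genes, 24.3% passed as higher with 24.2% as lower in M0. These shares were 19.7% with 16.6% for M1 and 11.6% with 13.1% for M2. Cxcl10, a chemokine that DPP4 trims, had 76.3 to 133 normalized counts in Prep+/- and 683 to 1682 in Prep-/- M0 (log2 fold change 3.36 ± 0.59, adjusted p = 0.000248), and was also higher in M1 (2.50 ± 0.54, adjusted p = 0.00253). In M2 the groups overlapped, with a value for Cxcl10 of -0.39 ± 0.82 (adjusted p = 0.771). Nlrp1b, the inflammasome sensor that DPP9 restrains, was higher in M0 and M1 (1.11 ± 0.25 and 0.89 ± 0.27, adjusted p = 0.00154 and 0.0170). Its M2 groups overlapped, with a value of 0.65 ± 0.25 (adjusted p = 0.0712). Ada, the adenosine deaminase that binds DPP4 in humans, fell by 1.03 ± 0.17, 0.64 ± 0.18 and 1.48 ± 0.19 in M0, M1 and M2. No list was tested as a set, and the shares of all genes given above are the background for these counts too.

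The genes whose pattern over the 18 libraries was closest to that of Prcp were Hexa, Sidt2 and Mgst1, by the root mean square difference of centred log2 CPM (0.23, 0.24 and 0.27, where the SD of Prcp was 0.77). They were selected on these values, so that the likeness is a description. Hexa, a lysosomal hexosaminidase subunit, had means of 17834, 14982 and 20216 normalized counts in Prep+/- and 41982, 18767 and 36559 in Prep-/- M0, M1 and M2. The closest to Prep were Epha2, Cdca7 and Ung (0.64, 0.81 and 0.82, where the SD of Prep was 2.02), which were much less alike, and Epha2 had 59.5 ± 35.4 normalized counts in Prep+/- M0 and at most 2.13 in any Prep-/- library.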

How the data were processed

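Bulk RNA-seq libraries were made with a stranded mRNA kit from BMDMs of 2 genotypes in 3 states, with 3 replicates per group. The authors trimmed the reads (Trimmomatic 0.36), aligned them to GRCm39 (HISAT2 2.2.1.0), assembled transcripts and made the deposited table of raw counts per gene symbol, without normalization. The annotation release, the strand setting and the treatment of multi-mapping reads are not given in the sources used here, and counts of overlapping or near-identical genes may be shared. Each of the 18 columns matched 1 sample label. Depth lay between 19068237 and 22598279 counts per library.

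Genes were filtered with filterByExpr on the 6 groups (12021 of 16314 kept), scaled by TMM (factors 0.818 to 1.20) and tested in R 4.3.3 with the quasi-likelihood method of edgeR 4.0.16. A single fit held all 18 libraries, each of the 6 groups had its own coefficient, and p-values were adjusted by Benjamini-Hochberg over all genes tested. A gene passed at an adjusted p under 0.05 and was a DEG if its fold change was also over 1.5. Differences of the genotype effect between states were interaction contrasts. The paper used DESeq2, which was an alternative here (DESeq2 1.42.0). Other alternatives were relative log expression scaling, no filter or at least 1 CPM in 9 libraries, only the libraries compared, a replicate block, and leaving out each library. The procedure was tested on simulated counts.

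Normalized counts are counts divided by TMM-scaled library size and multiplied by the mean of these sizes. Exon lengths, gene positions and coding sequences were taken from the GENCODE annotation of GRCm39, and shared stretches of at least 100 bases and 80% identity were found with blastn 2.17.0. All 10 genes were named by the choice of the set. Of 6 further lists, up to 3 genes each were named, those with the largest mean change over the states among genes that passed in at least 1 state, and the 3 genes nearest to Prcp and to Prep in pattern were picked by their values. The values of 1 gene that this rule names, and the medians of its list, are not reported here. The members and lists were chosen with earlier results of these data known.

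Replicate numbers were checked for pairing by the correlation of deviations from the group means. All 3 correlations were over 0.1 between the genotypes in M2 (0.249, 0.255 and 0.462) and between M1 and M0 of Prep-/- (0.201, 0.169 and 0.259), where the numbers were taken to pair the samples, and not in the other comparisons. No source says that a number marks a shared mouse or day.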

Additional observations from a re-analysis of the deposited data

Results flagged for a closer look

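For 4 of the 8 related genes tested, the difference between Prep-/- and Prep+/- BMDMs itself differed between macrophage states in the interaction test. For Prcp the log2 fold change was lower in M1 than in M0 by 1.55 (difference -1.55) and lower in M2 than in M0 by 0.82 (difference -0.82). Pepd showed the same direction in M1, with a difference of -0.54. For Dpp7 the genotype effect was higher than in M0 by 0.48 in M1 and by 0.82 in M2, and for Xpnpep1 it was higher by 0.50 in M2. The values for Prcp, Pepd and, in M2, Dpp7 held in 19 of 19 alternative fits each, those for Dpp7 in M1 and Xpnpep1 in M2 in 8 and 7 of 19. Over all genes, 13.7% passed with a higher and 10.9% with a lower genotype effect in M1 than in M0, and 5.16% and 4.48% in M2. All 6 differences use the same M0 libraries, so that they are not independent of each other.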

How the results depend on the processing

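Of the 41 calls for Prep and the related genes over the 10 comparisons, 23 held in every alternative, and no call changed direction. Those for Prcp in M0 and M2 and for its differences between states are among them. With relative log expression scaling, related genes lower in M1 than M0 of Prep+/- numbered 1 instead of 2. Without a filter on low counts that number was also 1, and genes higher averaged over the states and with a higher genotype effect in M2 than M0 were 1 each instead of 2. In fits of only the libraries compared, genes higher in M1 of Prep-/- were 1 instead of 2, those with a higher effect in M1 than M0 were 0 instead of 1, and in M2 than M0 1 instead of 2. No such fit exists for the average over the states, which uses all libraries. Leaving out each library in turn gave 0 to 1 higher and 0 to 3 lower in M1, 1 to 2 higher in M2, 1 to 2 higher averaged, 1 to 2 higher and 0 to 2 lower for M1 of Prep+/-, 0 to 1 lower for M2 of Prep-/-, and 0 to 1 and 1 to 2 with a higher effect in M1 and M2 than M0. Such fits have fewer samples, and the causes were not tested. By the longest transcript as length, Prcp ranked 4 rather than 2 in Prep-/- M1, and as CPM of the raw total the summed level differed by 8.21% in M0 and 6.82% in M2.

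With a replicate block in all libraries, genes higher averaged over the states were 1 instead of 2. With a replicate block in only the libraries compared, genes lower in M0 were 1 instead of 2, lower in M1 of Prep+/- 1 instead of 2, higher in M2 of Prep-/- 2 instead of 4, and with a higher effect in M1 and M2 than M0 0 and 1. In the 2 comparisons whose numbers were taken to pair the samples, the block changed no call of the single fit of all 18 libraries, which has no block. The Prepl call in M1 of Prep-/- was lost in the fit of only the libraries compared without a block, and held with the block.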

Other observations

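The genes of the table within 1000000 bases of Prep on chromosome 10 were Atg5, Crybg1, Hace1, Lin28b and Prdm1, and Lin28b did not pass the filter on low counts. Atg5, an autophagy gene at chr10:44142076-44240308, was higher in Prep-/- BMDMs in each state, with log2 fold changes of 0.27 ± 0.08, 0.37 ± 0.08 and 0.39 ± 0.08 in M0, M1 and M2 (edgeR adjusted p = 0.0124, 0.00301 and 0.00262). Prdm1, which encodes the repressor BLIMP1 at chr10:44313171-44404497, was also higher in each, by 1.44 ± 0.28, 0.76 ± 0.29 and 1.33 ± 0.29 (adjusted p = 0.000499, 0.0491 and 0.00283). Its normalized counts in M0 were 259, 197 and 175 in Prep+/- against 729, 612 and 376 in Prep-/- libraries. Crybg1 was lower in M0 (-0.35 ± 0.13) and higher in M1 (0.45 ± 0.13), and Hace1 passed in none of the 3 states. These neighbours were listed by position, after results of these data were known, and the state of the region around the Prep allele was not tested.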
